A study of Mus musculus with 36 samples.

Results

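Ribosome biogenesis genes and the transcription factor gene Myc were followed in cultured mouse microglia and astrocytes, as 49 genes matched by symbol among 15385 genes listed for microglia and 14551 for astrocytes. The 49 genes are Myc and 48 genes of RNA polymerase I, of the small nucleolar ribonucleoproteins (snoRNPs), of the nucleolar scaffold and of the assembly of the small and large ribosomal subunits. All 49 were listed in both tables and passed the filter on low values, a log2 value of at least 1 in at least 4 microglial or 3 astrocyte libraries. Primary cells came from mixed glial cultures of pooled brains of C57BL/6 mice aged 2 to 4 days by the sample labels, of which the methods give only the upper age. Microglia were taken out by CD11b selection after 12 days in culture, and astrocytes were selected from the cells that remained.

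All cells were treated for 4 h. Microglia received DMSO as the vehicle, the RIPK1 kinase inhibitor Nec-1s (N), TNF plus 5z-7, which inhibits TAK1 (T/5z), TNF plus a Smac mimetic and zVAD, which inhibits caspases broadly (T/S/Z), or either stimulus with Nec-1s added (T/S/Z/N, T/5z/N), with 4 libraries each. Astrocytes received the vehicle, Nec-1s, or T/S/Z alone or together with Nec-1s, with 3 libraries each. T/5z is used to induce RIPK1-dependent apoptosis and T/S/Z to induce necroptosis, and neither group received TNF without an inhibitor, so TNF and the inhibitors of a stimulus cannot be told apart. The study's statistics section describes its n as biological replicates, for cultured cells those from separate litters, while the sample labels do not name a litter or culture, so p-values measure the spread between these libraries. In bulk libraries, fewer cells of a type and less RNA per cell cannot be told apart.

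A ribosome is built in the nucleolus, where RNA polymerase I transcribes the ribosomal RNA precursor. Box C/D and box H/ACA snoRNPs guide its methylation and pseudouridylation, and assembly factors, helicases and GTPases then process it into the small and the large subunit. MYC, a transcription factor that pairs with MAX and binds the E-box CACGTG, is a known activator of many of these genes, and its mRNA is short-lived.

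Values were log2(FPKM + 1), where FPKM counts fragments relative to exon length and to the fragments sequenced. Libraries of each table were scaled to a common 75th percentile. The tables hold no total counts and the scaling hides them, so the depth behind each value is unknown. In 18 of 36 libraries, all 12 of astrocytes and the 6 microglial ones of replicate 4, 66.5% to 87.2% of the 400 lowest values lay within 0.1 of a whole multiple of 1 step, and in replicates 1 to 3 of microglia no step was found. In the microglial table, each gene's mean over the groups was the same in every replicate to within 6.67e-05, an adjustment the study's methods do not describe, so the spread between those replicates is that left after it. The sample labels name different providers for microglial and astrocyte libraries, the study's methods describe one procedure, the tables were normalized separately, so levels are set side by side with no test across cell types. A gene "passed the test" where its Benjamini-Hochberg adjusted p from limma was under 0.05, and it was "called" where its fold change also exceeded 1.5.

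All 12 microglial markers had a mean of at least 1 in each microglial group, with a summed FPKM of 9350 to 11300 per library, and 9 astrocyte markers summed to between 4.88 and 22.2 there. In astrocyte libraries the 10 astrocyte markers summed to between 2920 and 3410, and the microglial markers to between 65 and 113. Fibroblast and vessel markers summed to between 494 and 533 and oligodendrocyte lineage markers to between 100 and 128 in unstimulated astrocyte libraries. The labelled cell type thus had the highest summed markers in each table, beside signal of the other types in the astrocytes.

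Promoter windows are shown for the 3 called members with the largest change after T/S/Z in microglia that had one (Gnl3, Nop58 and Nop56). They are also shown for Nop2 and Grwd1, called with T/S/Z in astrocytes but not in microglia, whose window held an E-box. Both were chosen after their values were seen. No member called with T/S/Z in microglia was among those found to hold an E-box. Windows come from RefSeq (GRCm38.p6) and run from 250 bases before to 50 after the start site, written 5′ to 3′ on the strand of the gene. Capitals mark CACGTG or TCTCGCGA, both searched on both strands. They are Nop58 at chr1:59684756-59685055 (+ strand), Nop56 at chr2:130274162-130274461 (+), Gnl3 at chr14:31019082-31019381 (−), Nop2 at chr6:125131633-125131932 (+) and Grwd1 at chr7:45830740-45831039 (−).
Nop58: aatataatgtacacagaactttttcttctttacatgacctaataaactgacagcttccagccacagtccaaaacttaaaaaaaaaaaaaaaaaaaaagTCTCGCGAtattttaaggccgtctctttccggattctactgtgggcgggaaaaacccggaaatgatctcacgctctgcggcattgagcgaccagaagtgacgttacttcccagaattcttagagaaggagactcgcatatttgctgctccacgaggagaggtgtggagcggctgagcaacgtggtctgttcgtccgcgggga
Nop56: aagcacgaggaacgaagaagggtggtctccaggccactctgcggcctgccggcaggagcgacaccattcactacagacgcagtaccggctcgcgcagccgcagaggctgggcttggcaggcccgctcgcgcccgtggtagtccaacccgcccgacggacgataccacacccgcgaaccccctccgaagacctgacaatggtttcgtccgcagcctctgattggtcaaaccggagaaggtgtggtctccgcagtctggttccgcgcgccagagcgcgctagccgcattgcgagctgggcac
Gnl3: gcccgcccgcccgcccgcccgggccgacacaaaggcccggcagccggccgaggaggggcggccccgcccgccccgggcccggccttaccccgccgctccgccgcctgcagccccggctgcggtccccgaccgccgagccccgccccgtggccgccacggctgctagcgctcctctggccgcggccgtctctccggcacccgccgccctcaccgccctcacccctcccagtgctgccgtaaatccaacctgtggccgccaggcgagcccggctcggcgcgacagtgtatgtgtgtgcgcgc
Nop2: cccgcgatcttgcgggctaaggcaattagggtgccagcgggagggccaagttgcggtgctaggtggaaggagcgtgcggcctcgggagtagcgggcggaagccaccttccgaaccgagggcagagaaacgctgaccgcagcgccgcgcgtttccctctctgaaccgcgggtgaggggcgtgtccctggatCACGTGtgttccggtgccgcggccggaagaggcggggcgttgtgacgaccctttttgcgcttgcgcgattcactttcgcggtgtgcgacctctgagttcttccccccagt
Grwd1: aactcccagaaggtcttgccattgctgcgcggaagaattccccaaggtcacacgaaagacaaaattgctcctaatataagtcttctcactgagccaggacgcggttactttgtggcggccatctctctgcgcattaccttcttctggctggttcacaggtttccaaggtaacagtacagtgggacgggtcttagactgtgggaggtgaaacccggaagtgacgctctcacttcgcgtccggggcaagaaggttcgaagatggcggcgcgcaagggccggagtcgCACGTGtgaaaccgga

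Counted from the start site, the E-box began at base -60 in Nop2 and at base 34 in Grwd1, and TCTCGCGA began at base -152 in Nop58. Windows were found for 42 of the 49 members, but not for Myc, Fbl, Npm1, Rrp12, Bop1, Rrs1 and Gnl2. CACGTG was present for 10 of the 42 members (23.8%), Grwd1, Ltv1, Mybbp1a, Nle1, Nop2, Pes1, Rrn3, Tsr1, Utp20 and Wdr43, against 8.09% of all 27025 genes with a window and 11.4% of those tested in either cell type. It was held by 6 of 22 members that passed higher with T/S/Z in microglia (27.3%) and by 4 of the 20 others (20%), and by 7 of 28 in astrocytes (25%) and 3 of the 14 others (21.4%). TCTCGCGA was present for 4 of the 42 (9.52%), Nop14, Nop58, Polr1c and Tsr1, against 1.13% of all genes and 2.37% of those tested. A match says only that the letters are there.

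In vehicle-treated cells, levels per exon length ran over a wide range. Npm1, encoding the abundant nucleolar protein nucleophosmin, was the highest member in both cell types, at 7.38 ± 0.0362 in microglia (SD, n = 4) and 8.88 ± 0.147 in astrocytes (SD, n = 3). In microglia it was followed by Fbl at 5.38 ± 0.0536, Pes1 at 5.28 ± 0.0621 and Nhp2 at 5.06 ± 0.112, of which Fbl and Pes1 lay within their spread of each other. Myc was the lowest of the 49 in microglia, at 1.35 ± 0.0839, above 38.6% of all listed genes. In astrocytes Ncl, encoding nucleolin, at 7.54 ± 0.263, Nop58 at 6.32 ± 0.224 and Nop56 at 6.23 ± 0.0736 came next, the latter pair within their spread. Myc ranked 38 of 49 there, at 3.89 ± 0.0324, above 58.8% of genes. Exon lengths behind the values differ between the annotations for most members, among them Gnl3, Fbl and Nop56. These have 1947, 1197 and 1907 bases in the microglial and 6101, 4209 and 4099 in the astrocyte table.

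T/S/Z raised Myc and a set of nucleolar genes in microglia, and a weaker and more mixed change followed T/5z. With T/S/Z, 10 of 49 members were called higher and 0 lower, against 12.2% and 17.5% of the 10524 genes tested. With the adjusted p alone, 26 passed higher (53.1%) and 6 lower (12.2%), against 30.3% and 41.1% of all genes. The median log2 change was 0.21 over the members and -0.08 over all genes. After median centring the split was 31 higher and 3 lower, and after quantile normalization 30 and 4. Leaving out 1 replicate gave 19 to 24 higher and 4 to 5 lower, and ordinary per-gene variance 19 and 5. The mean log2 value of the 48 members other than Myc lay between 3.39 and 3.49 in the DMSO libraries and between 3.59 and 3.77 in the T/S/Z libraries, without overlap. Ddx21 and Rrp9 were no longer called without replicate 3, at 0.55 and 0.58, nor Ddx21 and Mrto4 without replicate 4, both at 0.52. With 5 added before the log 6 members were called, as Ddx21, Utp15, Mrto4 and Rrp9 fell below the fold minimum at 0.51, 0.50, 0.49 and 0.47, and after quantile normalization Ddx21 and Nhp2 did, at 0.55 and 0.54.

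With T/5z, 2 members were called higher and 0 lower (background 11.1% and 13.3%), and 19 passed higher (38.8%) and 11 lower (22.4%, background 27.4% and 36.8%). The called share was thus below that of all genes. The median was 0.08 over the members and -0.06 over all genes. Over the members it was 0.175 after quantile normalization, 0.147 after median centring and 0.0515 without replicate 2. Median centring gave 21 higher and 8 lower, and quantile normalization 24 and 9. Leaving out 1 replicate gave 15 to 19 higher and 8 to 10 lower, and ordinary per-gene variance 16 and 9. With the fold minimum kept, a member was called lower in 2 of the alternatives, Npm1 after quantile normalization, at -0.61, and Polr1c without replicate 3, at -0.60. Both stimulus comparisons share the 4 DMSO libraries.

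Myc (ENSMUSG00000022346, chromosome 15, 61985391 to 61990374, + strand, GRCm38) was at 1.47, 1.28, 1.31 and 1.34 in the DMSO libraries of microglia, replicates 1 to 4, and at 2.84, 3.03, 3.56 and 4.00 with T/S/Z. With T/5z the 4 values were 2.15, 2.19, 1.46 and 1.31. All T/S/Z libraries were above all DMSO and T/5z libraries, whereas 2 T/5z libraries lay within the DMSO range. The log2 change was 2.01 (SE 0.19, adjusted p = 5.02e-05) for T/S/Z, the largest of any member, and 0.43 (SE 0.16, adjusted p = 0.0507) for T/5z, which did not pass. The T/5z change passed under quantile normalization (0.56, adjusted p = 0.0159), median centring (0.50, adjusted p = 0.0304), 5 added before the log (adjusted p = 0.0489) and without replicate 4 (0.58, adjusted p = 0.0169), so this verdict depends on the setting. T/S/Z against T/5z gave 1.58 (SE 0.32, adjusted p = 0.00753), although under ordinary per-gene variance this last difference was no longer called.

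Rrs1, whose product helps to load the 5S ribonucleoprotein onto the large subunit precursor, had the largest change with T/5z. It was at 3.48, 3.56, 3.35 and 3.15 with DMSO, at 5.43, 5.50, 5.42 and 5.61 with T/5z and at 4.82, 4.76, 5.03 and 5.06 with T/S/Z. The 3 groups did not overlap, and T/5z was the highest. The log2 change was 2.10 (SE 0.09, adjusted p = 3.16e-06) for T/5z and 1.53 (SE 0.11, adjusted p = 1.42e-05) for T/S/Z. T/S/Z against T/5z was -0.57 (SE 0.06, adjusted p = 0.000573), and Rrs1 was the only member to pass lower in that comparison on the deposited values. After quantile normalization 2 members passed lower. The fold change of Rrs1 was under 1.5, which it exceeded without replicate 3, at -0.63.

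**Figure D1:**
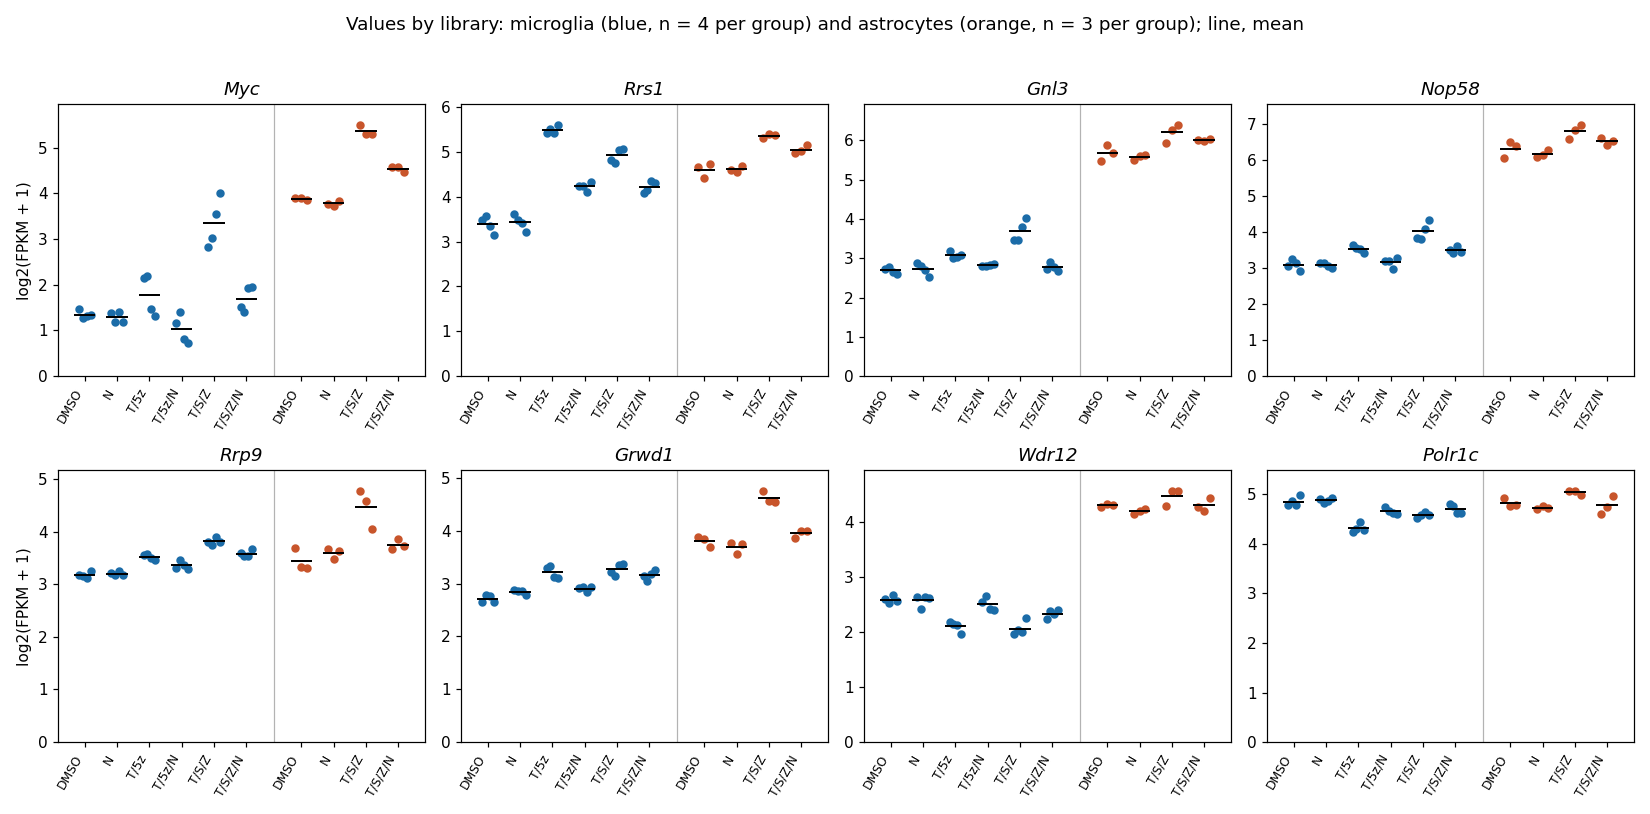
Log2(FPKM + 1) of 8 members in every library, microglia in blue (n = 4 per group) and astrocytes in orange (n = 3 per group), with a line at each group mean and an axis from 0. Myc in microglia runs from 2.84 to 4.00 with T/S/Z and from 1.28 to 1.47 with DMSO, Rrs1 is highest with T/5z, and Wdr12 and Polr1c are lower with both stimuli in microglia.

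Large subunit genes held the widest range of change in microglia. Of 18, 9 passed higher with T/S/Z (50%, all genes 30.3%) and 3 lower (16.7%, all genes 41.1%), and 7 and 4 with T/5z (38.9% and 22.2%, all genes 27.4% and 36.8%). Gnl3, encoding the nucleolar GTPase nucleostemin, was at 2.72, 2.79, 2.65 and 2.61 with DMSO, 3.19, 3.00, 3.02 and 3.08 with T/5z and 3.45, 3.47, 3.80 and 4.03 with T/S/Z. Its 3 groups did not overlap, with T/S/Z highest. The change was 1.00 (SE 0.12, adjusted p = 0.000214) for T/S/Z and 0.38 (SE 0.07, adjusted p = 0.00215) for T/5z, below the fold minimum, and T/S/Z against T/5z gave 0.62 (SE 0.11, adjusted p = 0.00481). Mrto4, a nucleolar relative of the ribosomal stalk protein P0, was called with T/S/Z at 0.61 (SE 0.08, adjusted p = 0.000335).

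Wdr12 fell with both stimuli. WDR12 works with PES1 and BOP1 in the PeBoW complex, which is needed for large subunit maturation. Wdr12 was at 2.60, 2.53, 2.67 and 2.56 with DMSO, 2.19, 2.14, 2.12 and 1.96 with T/5z and 1.96, 2.04, 2.00 and 2.26 with T/S/Z. Both stimulated groups were below every DMSO library, with a log2 change of -0.53 (SE 0.08, adjusted p = 0.000792) with T/S/Z, the lowest of any member, and of -0.49 (SE 0.07, adjusted p = 0.000695) with T/5z. Pes1 also fell, with changes of -0.23 (SE 0.05, adjusted p = 0.00459) with T/S/Z and -0.33 (SE 0.05, adjusted p = 0.00168) with T/5z, while Bop1 rose, 0.36 (SE 0.06, adjusted p = 0.000791) and 0.15 (SE 0.05, adjusted p = 0.0334). Rrp1b, a nucleolar protein of large subunit assembly, passed lower with both, -0.34 (SE 0.09, adjusted p = 0.0105) and -0.49 (SE 0.09, adjusted p = 0.00204). Genes of 1 complex thus moved in opposite directions. None of these falls was called on the deposited values, but Wdr12 was called lower with T/S/Z without replicate 4, at -0.60.

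Of the 3 box C/D genes, Nop58 and Nop56, whose products form the core of the particle, were called higher with T/S/Z. Nop58 was at 3.07, 3.26, 3.15 and 2.93 with DMSO, 3.65, 3.57, 3.54 and 3.41 with T/5z and 3.85, 3.82, 4.09 and 4.35 with T/S/Z, and its 3 groups did not overlap. The change was 0.93 (SE 0.13, adjusted p = 0.000351) with T/S/Z and 0.44 (SE 0.06, adjusted p = 0.000785) with T/5z. Nop56 had 3.96, 3.93, 3.74 and 3.73 with DMSO and 4.59, 4.57, 4.86 and 4.93 with T/S/Z, again without overlap, a change of 0.89 (SE 0.11, adjusted p = 0.000186). With T/5z its change was 0.43 (SE 0.05, adjusted p = 0.000216). Fbl, the methyltransferase of the same particle, did not pass with either, at 0.14 (SE 0.09, adjusted p = 0.179) and -0.07 (SE 0.05, adjusted p = 0.3).

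Of the 4 box H/ACA genes, 3 passed higher with T/S/Z (75%, all genes 30.3%) and 2 with T/5z (50%, all genes 27.4%). Nhp2, a core protein of the particle, had 5.17, 5.15, 4.93 and 5.00 with DMSO, 5.79, 5.82, 5.92 and 5.83 with T/5z and 5.67, 5.69, 5.75 and 5.91 with T/S/Z. Both stimulated groups were above every DMSO library, by 0.78 (SE 0.07, adjusted p = 7.24e-05) with T/5z and 0.69 (SE 0.08, adjusted p = 0.000124) with T/S/Z, both called, the latter not after quantile normalization. Dkc1, the pseudouridine synthase itself, was at -0.10 (SE 0.08, adjusted p = 0.322) with T/S/Z, which did not pass, and fell with T/5z, at -0.25 (SE 0.09, adjusted p = 0.0495), which no longer passed after median centring or quantile normalization.

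Most small subunit genes that passed rose, by less than 1.5-fold except for Utp15 and Rrp9 with T/S/Z. Of 14, 8 passed higher and 1 lower with T/S/Z (57.1% and 7.14%, all genes 30.3% and 41.1%), and 6 and 1 with T/5z (42.9% and 7.14%, all genes 27.4% and 36.8%). Utp15, of the small subunit processome, had 3.28, 3.29, 3.38 and 3.16 with DMSO and 3.88, 3.98, 3.92 and 3.97 with T/S/Z, with no overlap and a change of 0.66 (SE 0.07, adjusted p = 7.18e-05). With T/5z it was 0.28 (SE 0.06, adjusted p = 0.00563). Rrp9, a protein of the U3 snoRNP, was called with T/S/Z at 0.64 (SE 0.07, adjusted p = 8.08e-05) and passed with T/5z at 0.35 (SE 0.06, adjusted p = 0.00179), the highest of its group there. Wdr3, another processome protein, was the lowest in both, -0.24 (SE 0.07, adjusted p = 0.0119) and -0.25 (SE 0.06, adjusted p = 0.00665).

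RNA polymerase I genes did not move together. Polr1c, a subunit shared with RNA polymerase III, had 4.78, 4.85, 4.78 and 4.98 with DMSO, 4.24, 4.29, 4.43 and 4.28 with T/5z and 4.51, 4.58, 4.65 and 4.57 with T/S/Z. Every stimulated library was below every DMSO library, and T/5z was the lower stimulus, with changes of -0.54 (SE 0.06, adjusted p = 0.000341) and -0.27 (SE 0.06, adjusted p = 0.0051). Polr1b, the second largest subunit, had -0.29 (SE 0.10, adjusted p = 0.0285) with T/S/Z, the lowest of its group there, and -0.23 (SE 0.08, adjusted p = 0.0346) with T/5z. Rrn3, the initiation factor TIF-IA that brings RNA polymerase I to its promoter, rose with both, 0.53 (SE 0.08, adjusted p = 0.000502) and 0.45 (SE 0.07, adjusted p = 0.000847). Of the 6 members that passed lower with T/S/Z, Polr1b, Wdr3 and Pes1 no longer passed after median centring, and Polr1b, Wdr3 and Rrp1b no longer passed after quantile normalization, with no direction turned. With T/5z, Polr1b, Dkc1 and Noc2l no longer passed after median centring, nor Polr1a, Polr1b and Dkc1 after quantile normalization.

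Among the nucleolar scaffold and regulator genes, Ddx21, an RNA helicase of the nucleolus, was called with T/S/Z. Its values were 4.44, 4.27, 4.24 and 4.15 with DMSO and 4.78, 4.75, 4.97 and 4.96 with T/S/Z, without overlap, a change of 0.59 (SE 0.09, adjusted p = 0.000474). It was 0.33 (SE 0.07, adjusted p = 0.00442) with T/5z, the highest of this group. Npm1 was the lowest in both, at -0.06 (SE 0.05, adjusted p = 0.287) with T/S/Z, which did not pass, and -0.36 (SE 0.06, adjusted p = 0.00118) with T/5z, where it fell. Ncl fell with T/5z as well, -0.33 (SE 0.05, adjusted p = 0.000695), and had 0.08 (SE 0.09, adjusted p = 0.479) with T/S/Z.

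**Figure D2:**
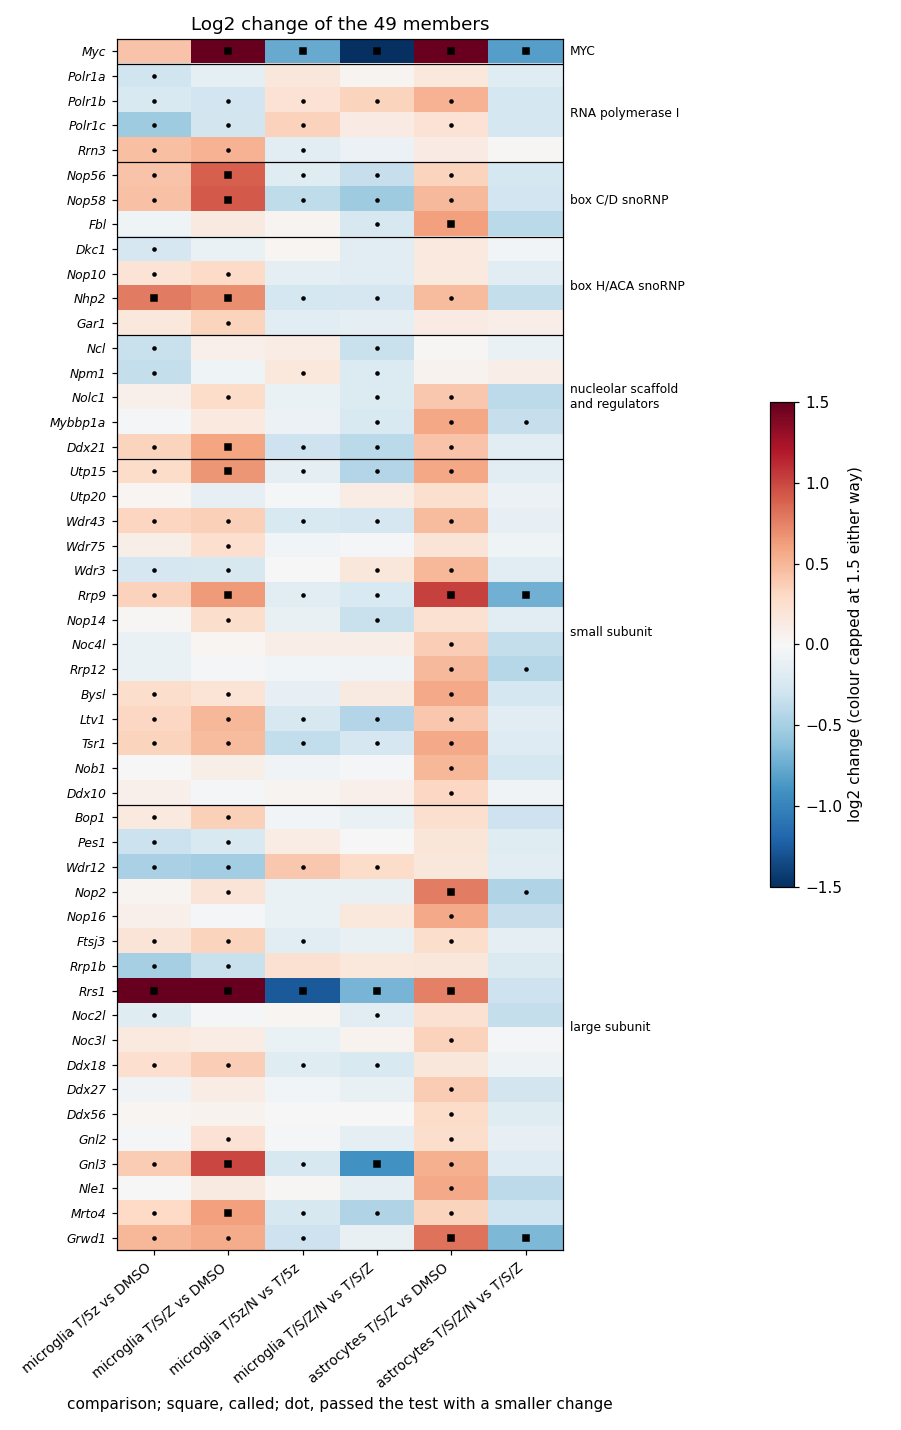
Log2 change of all 49 members (rows, by role) in 6 comparisons (columns), red for higher and blue for lower, with colour capped at 1.5. Squares mark called members and dots those that passed the test with a smaller change. The column of astrocytes with T/S/Z shows no blue, while the microglial stimulus columns hold both colours.

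Compared directly in microglia, the members that passed between the stimuli on the deposited values were higher with T/S/Z, except for Rrs1. 2 of 49 members, Myc and Gnl3, were called higher and 0 lower (background 5.42% and 4.42%), both below the share over all genes. With the adjusted p alone, 15 passed higher (30.6%) and 1 lower (2.04%, background 18.7% and 21.4%). Those that passed higher included Nop58, at 0.48 (SE 0.12, adjusted p = 0.0179), Nop56, at 0.47 (SE 0.11, adjusted p = 0.012), Ncl, at 0.41 (SE 0.10, adjusted p = 0.0134), and Npm1, at 0.30 (SE 0.07, adjusted p = 0.0157). The median over the members was 0.15 and over all genes -0.03, and leaving out 1 replicate gave 0.0835 to 0.205 over the members. Gnl3 was no longer called without replicate 3, at 0.56, or without replicate 4, at 0.51 with 1 member called, or with 5 added before the log, at 0.45. The members that passed higher numbered 9 without replicate 1 or replicate 4 and 5 under ordinary per-gene variance.

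With Nec-1s alone no member passed the test in microglia. There 0 members were called by limma (0% of all genes), 1 had an unadjusted p under 0.05, and changes lay between -0.11 and 0.13. Myc was at 1.38, 1.19, 1.41 and 1.18, a change of -0.06 (SE 0.07, adjusted p = 0.828).

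Added to T/S/Z, Nec-1s lowered Myc, Gnl3 and Rrs1. For T/S/Z/N against T/S/Z, 3 of 49 members were called lower and 0 higher (background 6.72% and 5.35%), both below the share over all genes. With the adjusted p alone, 21 passed lower (42.9%) and 3 higher (6.12%, background 23.8% and 34.1%). The median was -0.14 over the members and 0.06 over all genes. Of 6 astrocyte markers tested in microglia, 5 passed lower in the same comparison, 4 of them called, with a median of -0.97, and the sum of the 9 listed went from 13.7 to 19.9 FPKM with T/S/Z to 4.88 to 6.02 with T/S/Z/N. For T/5z/N against T/5z 4 of the 6 were called lower, with a median of -0.78, and the sum went from 12.1 to 22.2 to 8.15 to 8.95. Of 4 fibroblast and vessel markers 3 passed lower and 0 higher for T/5z/N against T/5z, and 2 lower and 1 higher for T/S/Z/N against T/S/Z. Of 3 oligodendrocyte lineage markers 2 passed lower and 1 higher in each. The part of these markers in the changes of the members was not tested. Each comparison of Nec-1s with a stimulus shares the stimulus libraries with the comparison of that stimulus with DMSO.

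Myc with T/S/Z/N ranged from 1.41 to 1.94 over the 4 libraries, below all T/S/Z libraries, with a change of -1.66 (SE 0.11, adjusted p = 2.21e-05). Gnl3 was at 2.72, 2.91, 2.78 and 2.68, overlapping the DMSO range, with a change of -0.91 (SE 0.12, adjusted p = 0.000458). Rrs1 was at 4.08, 4.14, 4.34 and 4.30, between the T/S/Z and the DMSO libraries, with a change of -0.70 (SE 0.05, adjusted p = 2.03e-05). Nop58 passed lower at -0.53 (SE 0.09, adjusted p = 0.00181) and Nop56 at -0.35 (SE 0.05, adjusted p = 0.000994). All 5 scaffold and regulator genes passed lower, from -0.41 for Ddx21 to -0.20 for Nolc1, though Npm1 turned positive after quantile normalization. Passing higher were Wdr12, at 0.27 (SE 0.07, adjusted p = 0.0088), Polr1b, at 0.33 (SE 0.08, adjusted p = 0.0067), and Wdr3, at 0.17 (SE 0.05, adjusted p = 0.0168). Wdr3 no longer passed after median centring, where the split was 30 lower and 2 higher, nor did Wdr3, Wdr12, Fbl, Npm1 and Noc2l after quantile normalization, where it was 23 and 1.

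For T/5z/N against T/5z, 2 of 49 members were called lower and 0 higher (background 4.52% and 2.64%), both below the share over all genes. With the adjusted p alone, 17 passed lower (34.7%) and 4 higher (8.16%, background 21.1% and 27.3%). Median centring gave 20 lower and 2 higher, and 11 passed lower without replicate 1 or without replicate 2. Rrs1 was at 4.24, 4.23, 4.11 and 4.33 with T/5z/N, between the T/5z and the DMSO libraries, with a change of -1.26 (SE 0.04, adjusted p = 6.79e-07). Myc was at 1.16, 1.40, 0.82 and 0.72, overlapping both T/5z and DMSO values, with a change of -0.75 (SE 0.09, adjusted p = 0.000351) within replicate numbers, which was not called with 5 added before the log, at -0.31. Wdr12, at 0.41 (SE 0.07, adjusted p = 0.00152), and Polr1c, at 0.34 (SE 0.06, adjusted p = 0.00153), passed higher, Wdr12 with values of 2.55, 2.66, 2.42 and 2.40.

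Against DMSO, T/S/Z/N had 1 of 49 members called higher, Rrs1, at 0.83 (SE 0.10, adjusted p = 0.000502), and 0 lower. Both shares were below the 6.2% and 7.87% of all genes. With the adjusted p alone, 12 passed higher (24.5%) and 6 lower (12.2%, background 20.3% and 25.7%). Myc, at 0.35 (SE 0.12, adjusted p = 0.0482), Nop56, at 0.55 (SE 0.09, adjusted p = 0.00154), and Rrn3, at 0.44 (SE 0.07, adjusted p = 0.00183), were among those that passed higher, whereas Gnl3 was at 0.08 (SE 0.06, adjusted p = 0.316) and did not pass. The called number was 2 without replicate 1 or without replicate 2, and the members that passed were 7 higher and 2 lower without replicate 2, with 2 lower also without replicate 1 and 3 without replicate 4. T/5z/N against DMSO had 1 called higher, Rrs1, at 0.84 (SE 0.09, adjusted p = 0.000131), and 0 lower (background 6.16% and 6.69%), and 4 passed higher (8.16%) and 6 lower (12.2%, background 18.2% and 22.3%), both below the share over all genes, with 7 and 5 after quantile normalization, 6 and 4 after median centring, 2 higher without replicate 2 or replicate 3, and 3 lower without replicate 1 or replicate 2. Myc was at -0.32 (SE 0.12, adjusted p = 0.0709) with T/5z/N and did not pass.

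An interaction term tested whether the change by Nec-1s depended on the stimulus, as its change in T/5z-treated minus that in T/S/Z-treated microglia. A positive value therefore means that Nec-1s lowered the gene more, or raised it less, after T/S/Z. Gnl3 was called, at 0.67 (SE 0.14, adjusted p = 0.00411), the 1 member of 49 called positive, with 0 called negative. Both shares were below the 3.77% and 2.7% of all genes. With the adjusted p alone 6 passed positive (12.2%, near the 11.1% of all genes) and 1 negative (2.04%, background 14.8%). The positive ones were Gnl3, Ncl, Npm1, Utp15, Nop14 and Noc2l, with Ncl at 0.45 (SE 0.12, adjusted p = 0.0114) and Npm1 at 0.37 (SE 0.08, adjusted p = 0.0061), and the negative one was Rrs1, at -0.56 (SE 0.09, adjusted p = 0.000403). Myc was at 0.91 (SE 0.39, adjusted p = 0.101), which did not pass. Without replicate 4 of each group the Gnl3 value was 0.52 and 0 members were called, and without replicate 1 there were 2, with Rrs1 called negative at -0.60. With 5 added before the log Gnl3 was no longer called, at 0.48, and Myc was, at 0.68.

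In astrocytes every member that passed rose with T/S/Z. All 49 changes were positive, from 0.02 to 1.48, with a median of 0.37 against -0.11 over all 13842 genes tested, though 2 of the 49 were negative after quantile normalization and 2 without replicate 3. 6 members were called higher and 0 lower (background 6.39% and 8.99%), and 33 passed higher (67.3%) and 0 lower (background 13.5% and 26.9%). The called number was 10 after quantile normalization, 13 after median centring, 11 without replicate 3, and 0 under ordinary per-gene variance, which does not share the spread between genes. Fbl was not called without replicate 2, at 0.54, or with 5 added before the log, at 0.58. The number that passed higher was 11 without replicate 1, 25 without replicate 2, 30 without replicate 3 and 1 under ordinary per-gene variance. The mean of the 48 members other than Myc was 4.68 to 4.72 in the DMSO and 5.03 to 5.12 in the T/S/Z libraries, which did not overlap.

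Markers of other cells moved in the same comparison. Of 7 fibroblast and vessel markers 5 were listed (Cldn5 and Pecam1 were not), and all 5 fell with T/S/Z, and their summed FPKM went from 515 to 525 per DMSO library to 95.2 to 105 with T/S/Z and 418 to 424 with T/S/Z/N. Summed microglial markers went from 103 to 112 with DMSO to 65 to 68.3 with T/S/Z and 91.4 to 101 with T/S/Z/N, with 9 of 11 passing lower. Markers of dividing cells summed to 180 to 201 with DMSO and 163 to 186 with T/S/Z. In microglia the dividing markers went from 50.7 to 56.9 with DMSO to 35.9 to 44.1 with T/5z and 33.8 to 37.4 with T/S/Z, and the astrocyte markers from 7.17 to 9.14 to 12.1 to 22.2 and 13.7 to 19.9. Fibroblast and vessel markers in microglia went from 9.93 to 12.1 with DMSO to 11.9 to 18.5 with T/5z, where 3 of 4 tested passed higher and 1 lower, and to 5.63 to 7.7 with T/S/Z, where 1 passed higher and 3 lower. Oligodendrocyte lineage markers went from 100 to 117 to 60.3 to 86.9 in astrocytes and from 30.6 to 32.6 with DMSO to 25.6 to 29.6 with T/5z and 27.5 to 37.7 with T/S/Z in microglia, where of 3 tested 2 passed lower and 1 higher with T/5z and 1 lower and 2 higher with T/S/Z, and neuronal markers stayed at 15.6 or less in every library. The part of these markers in the results was not tested.

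Myc in astrocytes was at 3.91, 3.90 and 3.85 with DMSO and 5.51, 5.29 and 5.29 with T/S/Z, with no overlap and a change of 1.48 (SE 0.08, adjusted p = 1.93e-05). Rrp9 had 3.68, 3.33 and 3.31 with DMSO and 4.78, 4.58 and 4.04 with T/S/Z, a change of 1.02 (SE 0.11, adjusted p = 0.000557) with a wide spread among the treated libraries but no overlap. Grwd1, encoding a WD-repeat protein of the nucleolus, had 3.88, 3.85 and 3.70 with DMSO and 4.76, 4.56 and 4.54 with T/S/Z, a change of 0.82 (SE 0.08, adjusted p = 0.000327). For these 3 genes every T/S/Z library lay above every DMSO library.

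Nop2, an RNA methyltransferase of the large subunit pathway, had 4.58, 4.45 and 4.59 with DMSO and 5.29, 5.38 and 5.25 with T/S/Z, a change of 0.77 (SE 0.08, adjusted p = 0.000505). Rrs1 had 4.65, 4.42 and 4.73 with DMSO and 5.30, 5.39 and 5.37 with T/S/Z, a change of 0.75 (SE 0.09, adjusted p = 0.000898). Fbl had 5.77, 5.64 and 5.50 with DMSO and 6.34, 6.39 and 6.02 with T/S/Z, a change of 0.61 (SE 0.08, adjusted p = 0.00101). None of these 3 genes had overlapping groups.

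By role, 11 of 14 small subunit genes (78.6%) and 12 of 18 large subunit genes (66.7%) passed higher in astrocytes, against 13.5% of all genes, with medians of 0.48 and 0.31. All 3 box C/D genes passed higher, as did 1 of 4 box H/ACA genes, Nhp2 at 0.47 (SE 0.08, adjusted p = 0.00302), 3 of 5 scaffold and regulator genes and 2 of 4 RNA polymerase I genes. The highest and the lowest in each role were Polr1b at 0.52 and Rrn3 at 0.13, Fbl and Nop56 at 0.34, Nhp2 and Gar1 at 0.13, Mybbp1a at 0.58 and Ncl at 0.02, Rrp9 and Wdr75 at 0.20, and Grwd1 and Wdr12 at 0.17. Rrn3, Gar1, Ncl, Wdr75 and Wdr12 did not pass.

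In unstimulated astrocytes no effect of Nec-1s on a single member passed the test, as 0 members were called by limma (background 0% higher and 0.0144% lower), 2 had an unadjusted p under 0.05 and Myc was at -0.11 (SE 0.08, adjusted p = 0.902). Changes were negative for 36 of 49, with a median of -0.06 against 0.0007 over all genes. Without replicate 2 they were negative for 31, with a median of -0.0271. Myc with Nec-1s had 3.77, 3.73 and 3.84, all below the DMSO libraries. Added to T/S/Z, Nec-1s gave 3 members called lower and 0 higher (background 1.59% and 1.51%), and 6 passed lower (12.2%) and 0 higher (background 3.77% and 4.05%). Changes were negative for 46 of 49, with a median of -0.20 against 0.03 over all genes. Myc was at 4.57, 4.58 and 4.47 with T/S/Z/N, between the DMSO and the T/S/Z libraries, with a change of -0.82 (SE 0.09, adjusted p = 0.003). Rrp9 was at 3.66, 3.85 and 3.72, a change of -0.72 (SE 0.15, adjusted p = 0.0333), and Grwd1 at 3.86, 4.00 and 3.99, a change of -0.67 (SE 0.10, adjusted p = 0.0128). Mybbp1a, Nop2 and Rrp12 passed lower by less than 1.5-fold. Myc alone was still called without replicate 1 or without replicate 2, 5 members were called without replicate 3, and 0 under ordinary per-gene variance. Those that passed lower numbered 2 without replicate 1, 1 without replicate 2, 20 without replicate 3 and 0 under ordinary per-gene variance.

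Against DMSO, T/S/Z/N had 1 of 49 members called higher in astrocytes, Myc, at 0.65 (SE 0.07, adjusted p = 0.0016), and 0 lower. Both shares were below the 4.36% and 4.72% of all genes, and Myc was no longer called with 5 added before the log. With the adjusted p alone, 10 passed higher (20.4%) and 0 lower (background 9.78% and 17.2%). Among those that passed were Rrs1, at 0.44 (SE 0.08, adjusted p = 0.0107), Utp15, at 0.41 (SE 0.09, adjusted p = 0.0187), and Tsr1, at 0.38 (SE 0.07, adjusted p = 0.0111), a GTPase-like factor of late small subunit assembly. The number that passed was 10 without replicate 1, 1 without replicate 2, 3 without replicate 3 and 0 under ordinary per-gene variance.

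Set side by side, 19 members passed higher with T/S/Z in both cell types, 73.1% of the 26 in microglia and 57.6% of the 33 in astrocytes. Over the 9912 symbols that name 1 tested gene in each table, 882 genes did so, 29.2% of those in microglia and 58.4% of those in astrocytes. Myc, Rrp9 and Rrs1 were called higher in both, for which the share over all genes was not counted. Polr1b, Polr1c and Wdr3 passed lower in microglia and higher in astrocytes, Wdr3 at -0.24 and 0.49 (SE 0.08, adjusted p = 0.00265). They were 50% of the members lower in microglia and 9.09% of those higher in astrocytes. Over the same 9912 symbols 260 did so, 6.4% and 17.2%. After quantile normalization Polr1b and Wdr3 no longer passed in microglia and Polr1c no longer passed in astrocytes. Without replicate 1, 11 rather than 33 members passed higher in astrocytes. Differences between the cell types were not tested.

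**Figure D3:**
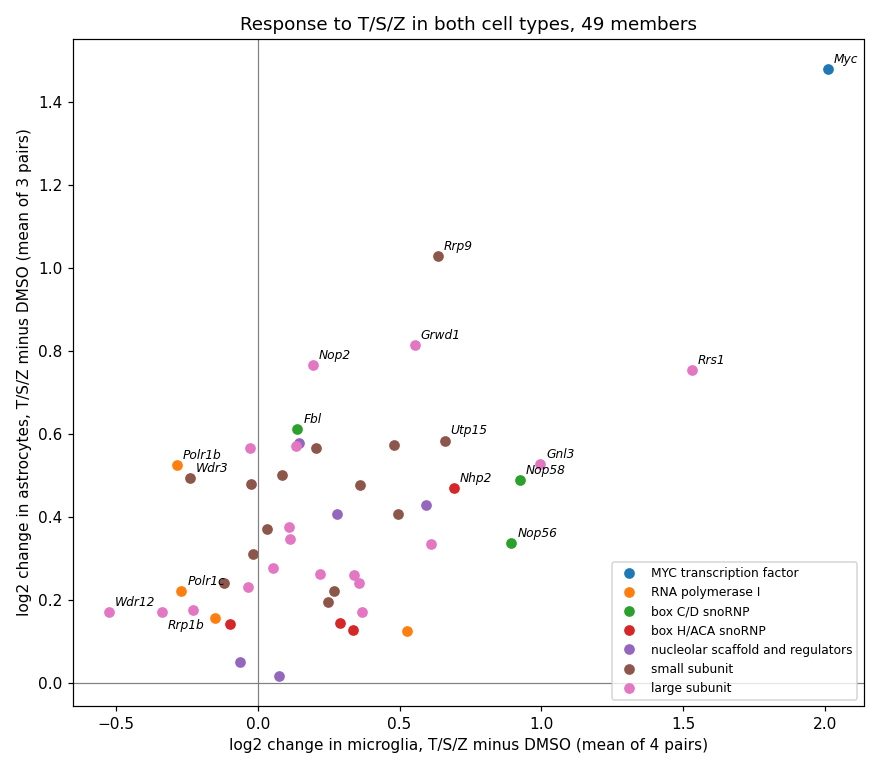
Log2 change with T/S/Z in microglia (x axis, mean of 4 pairs) against astrocytes (y axis, mean of 3 pairs), 1 point per member, coloured by role. All points lie above 0 on the y axis, Myc is at the top right, and 14 points, among them Wdr12, Rrp1b and Polr1c, lie left of 0 on the x axis.

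Genes of the same pathway outside the 49 were counted from lists, to be read against all genes tested, of which 30.3% passed higher and 41.1% lower in microglia with T/S/Z, 27.4% and 36.8% with T/5z, and 13.5% and 26.9% in astrocytes. Of 80 other ribosome biogenesis factors, 39 passed higher and 12 lower in microglia with T/S/Z, 39 and 12 with T/5z, and 35 and 1 in astrocytes. Their shares higher were 48.8%, 48.8% and 43.8%, each above that of all genes. Eif6, whose product keeps the subunits apart until the large one is mature, was called in all of them, 1.38 (SE 0.05, adjusted p = 4.83e-07), 1.10 (SE 0.05, adjusted p = 2.63e-06) and 1.5 (SE 0.09, adjusted p = 3.12e-05). Sbds, which helps to release EIF6, was at 1.11 (SE 0.08, adjusted p = 2.51e-05) with T/5z, and Gtpbp4, a large subunit GTPase, at 0.81 (SE 0.09, adjusted p = 9.18e-05) with T/S/Z. The small subunit factors Utp14a and Heatr1 had the largest falls in microglia, -1.003 (SE 0.07, adjusted p = 2.52e-05) and -0.86 (SE 0.06, adjusted p = 2.48e-05) with T/5z and -0.65 (SE 0.08, adjusted p = 0.0002) and -0.60 (SE 0.08, adjusted p = 0.000355) with T/S/Z. In astrocytes Ppan, of the large subunit pathway, was at 1.03 (SE 0.12, adjusted p = 0.000633) and Heatr1 at 0.72 (SE 0.10, adjusted p = 0.00163).

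Of 16 other RNA polymerase I factors, 4 passed higher and 4 lower in microglia with T/S/Z, 1 and 6 with T/5z, and 2 and 0 in astrocytes, shares higher of 25%, 6.25% and 12.5%, none above all genes. Polr2e, a subunit shared by the nuclear RNA polymerases, was called lower in microglia, -0.90 (SE 0.05, adjusted p = 3.34e-06) with T/S/Z and -0.85 (SE 0.07, adjusted p = 4.19e-05) with T/5z, and Ubtf, which binds ribosomal RNA gene promoters, with T/S/Z, -0.71 (SE 0.06, adjusted p = 1.87e-05). Of 13 RNA exosome genes, which trim and degrade the by-products, 4 passed higher and 3 lower in microglia with T/S/Z, 5 and 3 with T/5z, and 2 and 1 in astrocytes (30.8%, 38.5% and 15.4% higher, near all genes for T/S/Z in both cell types), with Mphosph6 at 0.92 (SE 0.07, adjusted p = 2.11e-05), Exosc3 at 0.67 (SE 0.07, adjusted p = 0.000111) and Exosc7 at -0.83 (SE 0.07, adjusted p = 3.88e-05) called with T/S/Z in microglia. Cytosolic ribosomal protein genes, encoding the proteins of the ribosome itself, shifted by small amounts, with 70 of 79 passing higher with T/S/Z in microglia (88.6%) at a median of 0.20, 12 (15.2%, below all genes) with T/5z at 0.06, and 4 higher and 4 lower in astrocytes. With limma 0 were called in microglia with either stimulus. In astrocytes Rpl12 was called higher, 0.61 (SE 0.08, adjusted p = 0.00101), and Rps27 lower, -0.75 (SE 0.15, adjusted p = 0.00656), and ribosomal protein genes share sequence with many pseudogenes, so their values are uncertain.

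MYC acts within a family of partners and antagonists. Of 9 such genes tested in microglia, 3 passed higher and 5 lower with T/S/Z, (33.3% and 55.6%), and likewise 3 and 5 with T/5z. The antagonist Mxd4 was called lower, -2.46 (SE 0.11, adjusted p = 1.18e-06) with T/S/Z and -1.81 (SE 0.13, adjusted p = 3.2e-05) with T/5z, as was Mnt, -0.84 (SE 0.07, adjusted p = 2.18e-05) and -1.67 (SE 0.06, adjusted p = 1.78e-06). The antagonist Mxd1 was called higher, 1.22 (SE 0.14, adjusted p = 0.00016) and 1.36 (SE 0.19, adjusted p = 0.000774), as was the paralogue Mycl, 1.67 (SE 0.14, adjusted p = 2.62e-05) and 2.68 (SE 0.16, adjusted p = 1.1e-05). In astrocytes 3 of 11 passed higher and 4 lower, with Mycn at -0.92 (SE 0.11, adjusted p = 0.00078) and Mxd4 at -0.72 (SE 0.09, adjusted p = 0.000774). Max, the common partner, was at -0.08 with T/S/Z and -0.04 with T/5z in microglia, neither of which passed.

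Known MYC targets outside the nucleolus were the last list. Of 20, 13 passed higher and 2 lower in microglia with T/S/Z, 9 and 5 with T/5z, and 6 and 1 in astrocytes. Their shares higher were 65%, 45% and 30%. In microglia Odc1, the rate-limiting enzyme of polyamine synthesis, was called at 1.33 (SE 0.08, adjusted p = 5.08e-06) and 0.91 (SE 0.04, adjusted p = 4.46e-06), Eif4a1, a translation initiation helicase, at 0.99 (SE 0.06, adjusted p = 4.57e-06) with T/S/Z, and Ctps, a CTP synthetase, at 0.83 (SE 0.14, adjusted p = 0.00186) with T/5z. Tfap4, a transcription factor, was called lower with both, -1.11 (SE 0.09, adjusted p = 2.09e-05) and -1.13 (SE 0.09, adjusted p = 5.46e-05). In astrocytes Ctps was at 1.32 (SE 0.08, adjusted p = 2.58e-05) and Srm, spermidine synthase, at 0.60 (SE 0.10, adjusted p = 0.00397).

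**Figure D4:**
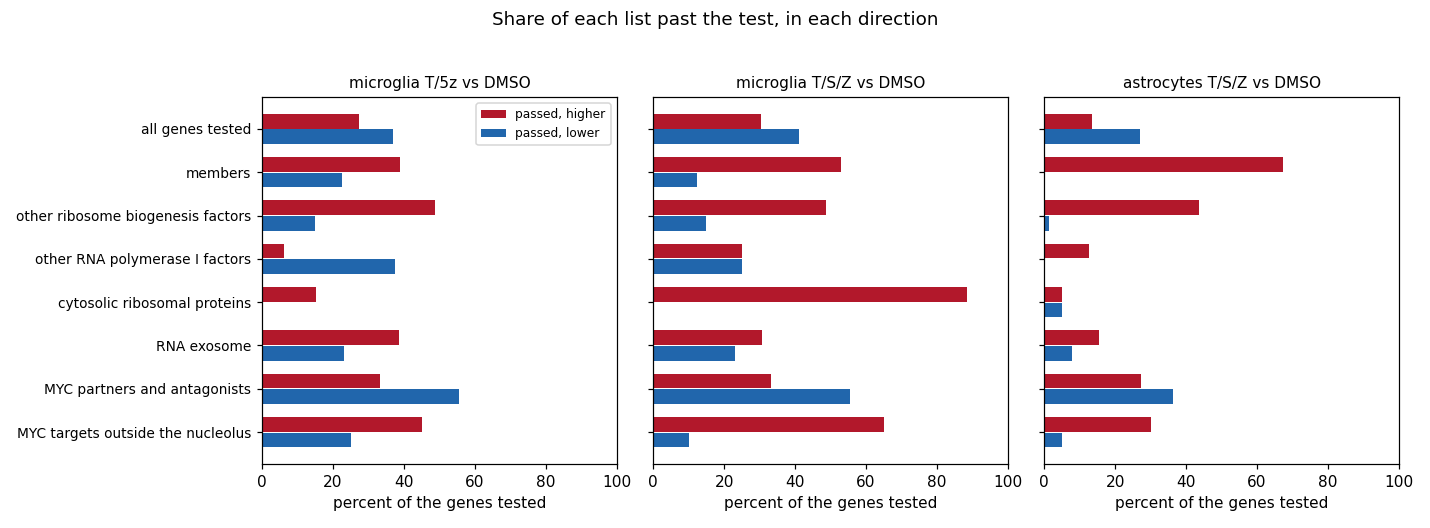
Percent of the tested genes in each list that passed the test higher (red) or lower (blue) in 3 stimulus comparisons, with all tested genes in the top row. In astrocytes 33 of 49 members passed higher and 0 lower, and in microglia with T/S/Z 26 and 6.

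Values of 20 members in the microglial and 23 in the astrocyte annotation carry a mark of confounding that the annotation does not define, and may include reads of a neighbouring or overlapping gene. Among the called genes it was on Gnl3, Nhp2, Nop56 and Nop58 in microglia and on Grwd1 and Rrp9 in astrocytes.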

How the data were processed

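RNA-seq of 24 microglial and 12 astrocyte libraries was analysed from 2 deposited tables of log2 values, 1 column per library. The authors made them in OmicSoft Array Studio by alignment, FPKM quantification, scaling to a common 75th percentile and a log2 transformation after adding 1. The aligner and build are not given in the sources used here. Gene starts matched GENCODE M21 (GRCm38) for 100% of astrocyte and 84.6% of microglial genes, whose annotation is of another release, and printed gene coordinates are those of the astrocyte annotation. The microglial table also carried the replicate adjustment described above and held up to 1438 negative values per library, against 0 in the astrocyte table.

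Groups came from the sample labels. Genes with a log2 value of at least 1 in at least 4 microglial or 3 astrocyte libraries were tested (10524 of 15385 and 13842 of 14551). Each comparison was fitted with limma 3.58.1 (lmFit, eBayes with a trend, R 4.3.3) on the libraries of the compared groups, with the replicate as a block, and adjusted by Benjamini-Hochberg over all tested genes. The procedure was tested on simulated data. Because 1 was added before the log, fold changes of low genes are understated. Myc, the extremes of each role, up to 5 called members per direction and up to 2 called genes per direction from each other list were to be named, and members named beyond that rule (such as Bop1, Pes1 and Ncl) were chosen after their values were seen. Members, lists and tests were chosen with earlier results of these data known. Alternatives were another scaling, another pseudocount, no filter, no fold minimum, no block, ordinary variance and leaving out each replicate. Promoters were searched in the RefSeq table.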

Additional observations from a re-analysis of the deposited data

Results flagged for a closer look

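In 78 groups of 4 microglial libraries over 13 members, 3 held a library farther from the other libraries of its group than Dixon's 95% limit allows, and chance gives about 1 in 20. Fbl was at 5.463 in replicate 1 of DMSO, against 5.35 to 5.361 in the others. Fbl was also at 5.205 in replicate 3 of T/S/Z/N, against 5.297 to 5.314. Grwd1 was at 2.836 in replicate 3 of T/5z/N, against 2.924 to 2.934.

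The change of Gnl3, the nucleostemin gene, with Nec-1s differed between the stimuli in microglia by 0.669 on the log2 scale (limma interaction, adjusted p = 0.00411). Its log2 change with Nec-1s was -0.24 in T/5z-treated cells and -0.91 in T/S/Z-treated cells.

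Of the 49 members, 5 (10.2%) were lower with T/S/Z than with DMSO for every replicate number in microglia and higher for every one in astrocytes, as were 6.41% of the 9912 symbols that name 1 tested gene in each table, and the difference between cell types was not tested. The log2 change was -0.525 in microglia and 0.171 in astrocytes for Wdr12, -0.338 and 0.171 for Rrp1b, -0.27 and 0.222 for Polr1c, -0.24 and 0.494 for Wdr3, and -0.229 and 0.177 for Pes1. In astrocytes Wdr12, Rrp1b and Pes1 did not pass the test. Wdr12 and Pes1 encode PeBoW proteins of the large subunit, Rrp1b another large subunit factor, Wdr3 a small subunit factor and Polr1c a shared polymerase subunit.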

How the results depend on the processing

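Without the replicate block the count of called members was the same in every comparison, for example 10 with T/S/Z and 2 with T/5z in microglia. The members that passed then numbered 8 higher and 9 lower for T/5z/N against DMSO and 18 higher and 6 lower for T/S/Z/N against DMSO in microglia, and 15 higher for T/S/Z/N against DMSO and 9 lower for T/S/Z/N against T/S/Z in astrocytes. Deviations from the group means of same-numbered astrocyte libraries correlated at -0.144 to 0.411, with 5 of 18 above 0.1. In microglia the equal replicate means force such correlations to be negative on average, so this check of pairing is void there, and the block followed the study's paired comparison. With no fold minimum, called members numbered 30 with T/5z, 32 with T/S/Z, 21 for T/5z/N against T/5z, 24 for T/S/Z/N against T/S/Z, 10 for T/5z/N and 18 for T/S/Z/N against DMSO, 16 for T/S/Z against T/5z and 7 for the interaction in microglia, and 33 with T/S/Z, 6 for T/S/Z/N against T/S/Z and 10 for T/S/Z/N against DMSO in astrocytes. With 5 added before the log there were 6 with T/S/Z, 1 for T/5z/N against T/5z and 1 for T/S/Z against T/5z in microglia, and 0 for T/S/Z/N against DMSO in astrocytes. For T/S/Z in astrocytes quantile normalization gave 10 and median centring 13, and for T/5z in microglia quantile normalization gave 4, of which 1 was lower. Ordinary per-gene variance gave 0 for T/S/Z against T/5z in microglia and 0 in each stimulus comparison of astrocytes. Leaving out 1 replicate gave 1 to 2 for T/S/Z/N against DMSO, 1 to 2 for T/S/Z against T/5z and 0 to 2 for the interaction in microglia, and 7 to 11 with T/S/Z and 1 to 5 for T/S/Z/N against T/S/Z in astrocytes. Of 369 values under these alternatives, for Myc in every comparison and the called members in theirs, 332 kept their direction and stayed called or not called, 36 were no longer called, 1 was newly called (Myc in the interaction with 5 added, 0.677) and 0 turned direction. Only Myc could be newly called among these values, and called members, with changes over 1.5-fold, were unlikely to turn. Members outside them were newly called under some alternatives, such as Grwd1 in microglia and Utp15 in astrocytes with T/S/Z. Among all members that passed, Npm1 turned direction for T/S/Z/N against T/S/Z in microglia after quantile normalization, and the other members were checked for this only under quantile normalization and median centring. The causes were not tested. The depth of the libraries is unknown, so how far it limits low members such as Myc in vehicle-treated microglia cannot be stated.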
